A study of Bubalus bubalis with 6 samples.

Results

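The tropomyosins, the tropomodulins and leiomodin 1 were followed in muscle stem cells (MuSCs) of water buffalo by polyA-Seq, a sequencing of polyadenylated RNA. Members were the rows of the deposited gene table with the symbol TPM1, TPM2, TPM3, TPM4, TMOD1, TMOD2, TMOD3, TMOD4 or LMOD1, together with their transcripts in the mRNA table. Of these 9 symbols, 7 were listed, and they gave 8 of the 24616 gene rows because TPM1 stood on 2 rows. TPM3 and TMOD3 were not listed by symbol. The TPM1 row on chromosome 3 shares 11 of its 15 named gene neighbours with buffalo TPM3 and 0 with buffalo TPM1. The mRNA table held 10 transcripts of the members among 22118. All 8 rows and all 10 transcripts had enough reads to be tested, among 15576 genes and 16352 mRNA transcripts.

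The MuSCs came from fetal longissimus muscle. The 3 GM samples were proliferating cells in growth medium with fetal bovine serum, and the 3 DM samples were cells moved at near confluence to a differentiation medium with horse serum for several days, the time when myotubes form. The number of fetuses and whether each sample was a separate culture are not given in the sources used here, so the p-values below measure the spread between these samples, which may be technical. The comparison of GM with DM asked how the genes that coat and cap the thin filament change as MuSCs leave the cell cycle and form myotubes.

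Tropomyosins are coiled-coil proteins that lie end to end along the actin filament. In striated muscle they work with troponin to open and close the binding sites for myosin, and in non-muscle cells they stabilise stress fibres. Each tropomyosin gene can give muscle and non-muscle isoforms from different promoters and exons. Tropomodulins bind tropomyosin and cap the pointed end of the filament, the end that faces the middle of the sarcomere, and leiomodins are their larger relatives that start new filaments and let pointed ends grow.

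Most of the family was higher in DM samples, and TPM4 was the main exception. TMOD1 rose 3.73-fold, TMOD2 2.13-fold and LMOD1 2.13-fold, while TPM1 on chromosome 10 and TPM2 rose just under 2-fold and 1.90-fold. TPM4 fell to 0.598 of its GM level. The chromosome 3 row, listed as TPM1 but with gene neighbours of buffalo TPM3, fell to 0.779. TMOD4 did not differ beyond the spread between samples. Inside the chromosome 3 row the reads of 1 transcript rose 10.1-fold while those of the other fell, so the small change of the whole row joined opposite changes of its transcripts.

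Here "rose" and "fell" are used where the adjusted p of edgeR's quasi-likelihood test, with Benjamini-Hochberg adjustment over all features tested, was under 0.05, and "called" where the change was in addition more than 2-fold, an absolute log2 fold change above 1. Levels are CPM, read counts scaled to a common library size with TMM factors, and RPKM where genes of different length are compared. By the stricter rule 3 of 8 member rows were called higher in DM samples, against 15.0% of all genes tested, and 0 were called lower, against 10.3%. By adjusted p alone 5 rows rose, where 31.6% of all genes did, and 2 fell, where 31.4% did. The CPM of GM and DM samples did not overlap in 7 of 8 rows, against 68.8% of genes. The median log2 fold change of the 8 rows was 0.96, beside 0.03 over all genes tested. In bulk samples fewer cells of a type and less RNA per cell cannot be told apart.

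**Figure D1:**
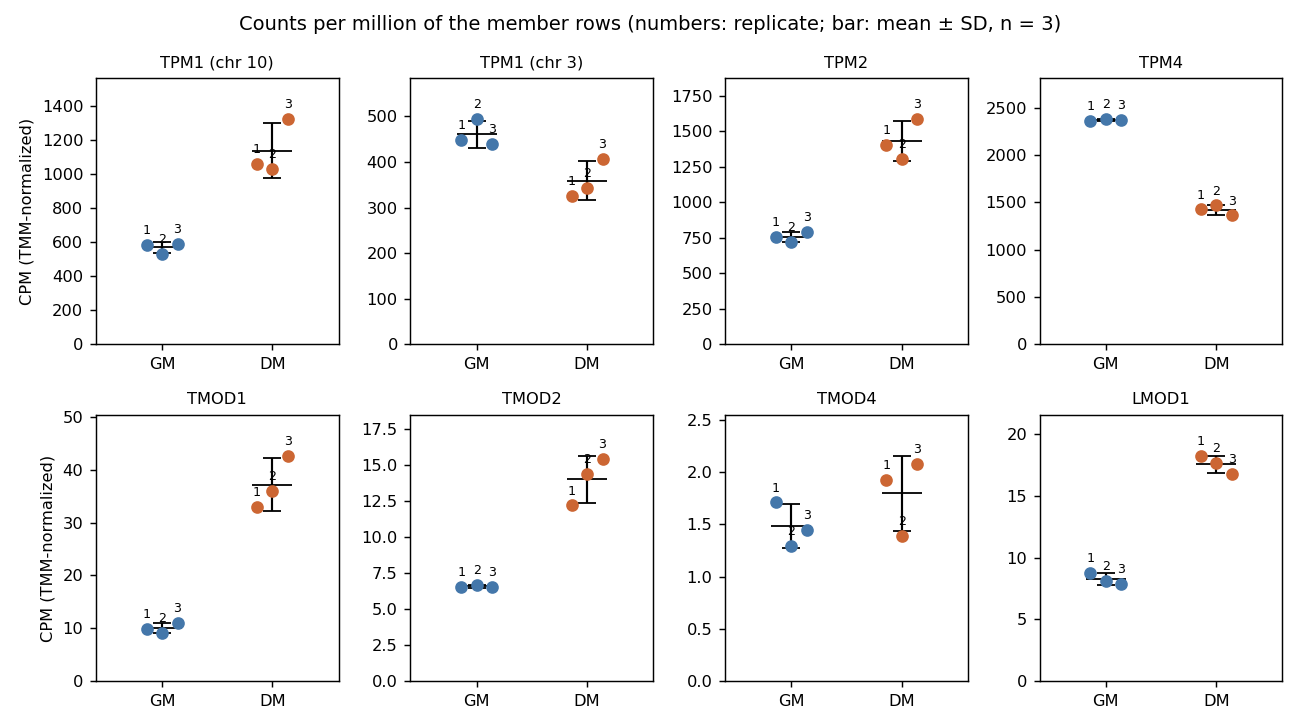
CPM (y axis, linear from 0, own scale in each panel) of the 8 member rows in the 3 GM samples (blue) and 3 DM samples (orange). Points are samples numbered by replicate, and bars give the mean ± SD (n = 3). Only TMOD4 shows GM and DM samples that overlap. DM replicate 3 is the highest DM sample for both TPM1 rows, TPM2, TMOD1, TMOD2 and TMOD4, and the lowest for TPM4 and LMOD1.

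Gene counts ranged from 35615864 to 40305237 per sample, and the member rows took 0.406 to 0.461% of them. DM replicate 3 stood apart. The chi-square per degree of freedom between it and the other DM samples was 40.5 to 41.4, against 6.22 to 11.7 for the other replicate pairs. For the marker counts below, 15.0% of all genes tested were called higher and 10.3% lower. Of 8 skeletal muscle markers tested 7 were called higher in DM samples. The summed level of the 8 markers went from 2573 to 3029 CPM in GM samples to 5714 to 8448 CPM in DM samples, highest in DM replicate 3. MYH8, the perinatal myosin heavy chain, reached 292 ± 59.1 CPM (SD, n = 3) from 2.01 ± 0.798. The expression of fibroblast markers changed as well. Of 9 tested 7 were called higher, and the summed level went from 35798 to 36576 CPM to 98040 to 123806 CPM, lowest in DM replicate 3. Most of this sum came from COL1A1, COL1A2 and COL3A1. POSTN went the other way, from 456 ± 13.8 to 239 ± 99.8 CPM (log2 fold change -0.93, adjusted p = 0.00316). Of 6 smooth muscle markers 0 were called higher and 2 lower, with 4024 to 4198 CPM in GM samples and 2903 to 3505 CPM in DM samples. DES stands in both the skeletal and the smooth muscle list and was not called (2274 ± 103 and 2051 ± 323 CPM, adjusted p = 0.217). It made up most of the smooth muscle sum, and in GM samples most of the skeletal muscle sum. Of the 5 cardiac markers MYL7 and NPPB were at 0 in every sample, and MYH6 was the 1 marker with enough reads to be tested and was called higher. Of the adipocyte, endothelial and immune markers 2, 1 and 1 were called higher and 1, 2 and 1 lower, with sums of at most 13.3 CPM. No skeletal muscle, fibroblast or smooth muscle marker was at 0 in every sample, and the part of these cells in the results below was not tested.

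TPM1, the alpha-tropomyosin of fast skeletal and cardiac muscle, was listed as ENSBTAG00000005373 on chromosome 10 (47056204 to 47065846, minus strand) with 1 transcript of 834 bases. Its level was 585, 532 and 591 CPM in GM samples and 1061, 1030 and 1324 CPM in DM samples. All DM samples lay above all GM samples, and DM replicate 3 was the highest. The log2 fold change was 0.999 (SE 0.096, adjusted p = 5.79e-06), just under the limit of 1. Across 15 settings of the analysis that kept the 2-fold limit the row was called in 8, so whether it counts as a 2-fold rise depended on small choices. Without DM replicate 3 the log2 fold change was 0.88.

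TPM2, beta-tropomyosin, is at chromosome 8, 60267452 to 60274815 (minus strand, ENSBTAG00000011424). It stood at 754, 722 and 791 CPM in GM samples. In DM samples it stood at 1404, 1309 and 1588 CPM. The groups were far apart, with a log2 fold change of 0.92 (SE 0.078, adjusted p = 2.31e-06), which was not past the 2-fold limit. Leaving out DM replicate 2 brought the log2 fold change of TPM2 to 1.0005 and that of TPM1 on chromosome 10 to 1.08, and 5 member rows were then called in place of 3.

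TPM4, which is best known from the cytoskeleton of non-muscle cells, is at chromosome 7, 7923143 to 7948265 (minus strand, ENSBTAG00000004553). It had 2366, 2384 and 2375 CPM in GM samples, the highest and the most even level of the family. It had 1426, 1470 and 1363 CPM in DM samples, all below every GM sample. The log2 fold change was -0.74 (SE 0.058, adjusted p = 1.20e-06). It was under the 2-fold limit, and TPM4 was called lower in 0 of 15 settings.

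The second row with the symbol TPM1 is at chromosome 3, 16376436 to 16403812 (plus strand, ENSBTAG00000033217). Its level was 448, 494 and 439 CPM in GM samples and 326, 343 and 408 CPM in DM samples. The groups did not overlap, but the fall was small, with a log2 fold change of -0.36 (SE 0.088, adjusted p = 0.00441). Of the 15 named genes next to this row, 10 rows on each side, 11 lie within 10 genes of TPM3 in the RefSeq annotation of the buffalo assembly NDDB_SH_1, among them IL6R, UBAP2L and HAX1, and 0 lie near buffalo TPM1. For the chromosome 10 row 5 of 17 neighbours were shared with buffalo TPM1 and 0 with TPM3. The row keeps its listed symbol here, with its chromosome beside it.

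**Figure D2:**
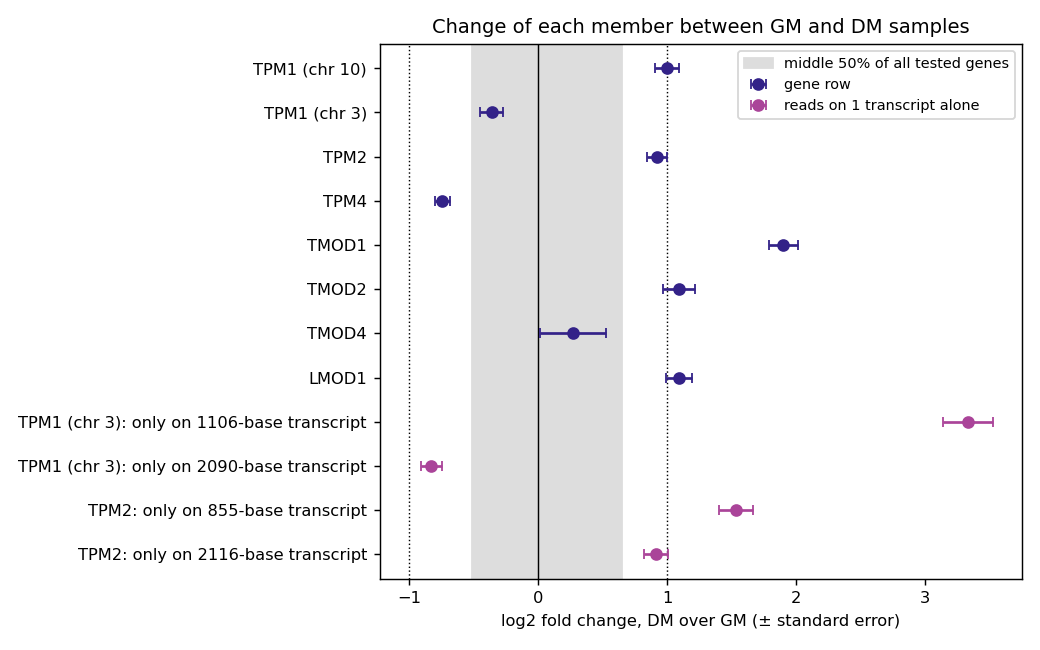
Log2 fold change of DM over GM samples (x axis, ± standard error from edgeR, 3 samples per group) for the 8 member rows and for the reads counted on 1 transcript alone. Dotted lines mark a 2-fold change and the grey band the middle 50% of all genes tested, from -0.51 to 0.65. The largest change, 3.33, belongs to reads found only on the 1106-base transcript of the chromosome 3 row.

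Since tropomyosin genes differ in length, their levels were compared in RPKM, on the deposited values. In GM samples the order was TPM4 (1097 ± 1.62 RPKM, SD, n = 3), TPM1 on chromosome 10 (706 ± 41.7), TPM2 (357 ± 16.5) and TPM1 on chromosome 3 (174 ± 10.9), with no overlap between neighbours. In DM samples TPM1 on chromosome 10 came first (1319 ± 190 RPKM). TPM2 (632 ± 61.5) and TPM4 (613 ± 28.5) followed, and their ranges overlapped. The chromosome 3 row stayed below them at 127 ± 16.0 RPKM. The first place of TPM1 rests on its listed length of 834 bases. In CPM, which is not per length, TPM1 on chromosome 10 (1138 in DM samples) lay below TPM2 (1434) and TPM4 (1420), and in GM samples it lay below TPM2 as well (569 and 756).

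The composition of tropomyosin mRNA was compared next. TPM4 made up 46.6, 48.1 and 46.3% of the summed tropomyosin RPKM in GM samples and 23.9, 25.1 and 19.8% in DM samples. TPM1 on chromosome 10 went from 31.0, 28.8 and 31.0% to 47.7, 47.2 and 51.7%. TPM2 went from 15.3% ± 0.434 to 23.5% ± 0.583, and the chromosome 3 row from 7.45% ± 0.616 to 4.70% ± 0.205 (SD, n = 3). None of the 4 shares overlapped between groups. An exact permutation test gave p = 0.1 for each, two-sided, which is the smallest value that 3 against 3 samples allow, and 0.1 after adjustment over the 4 rows. The summed RPKM was 2334 ± 44.8 in GM and 2691 ± 247 in DM samples, while the share of all gene counts was 0.430% ± 0.00371 and 0.421% ± 0.0291 and overlapped (exact permutation p = 0.6). The length listed for TPM1 on chromosome 10 is a multiple of 3, as in a coding sequence without untranslated regions, while the other tropomyosin rows are longer, so their RPKM are taken over different parts of the mRNA. With shares of raw counts in place of RPKM, the share of TPM4 fell by 24.3 points while TPM1 on chromosome 10 gained 12.4 points and TPM2 14.8 points, where in RPKM TPM2 had gained 8.21 and TPM1 18.6 points. With RPKM summed over the listed transcripts these gains were 11.5 points for TPM1 and 12.0 for TPM2, so which of them gained more depended on the scale.

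**Figure D3:**
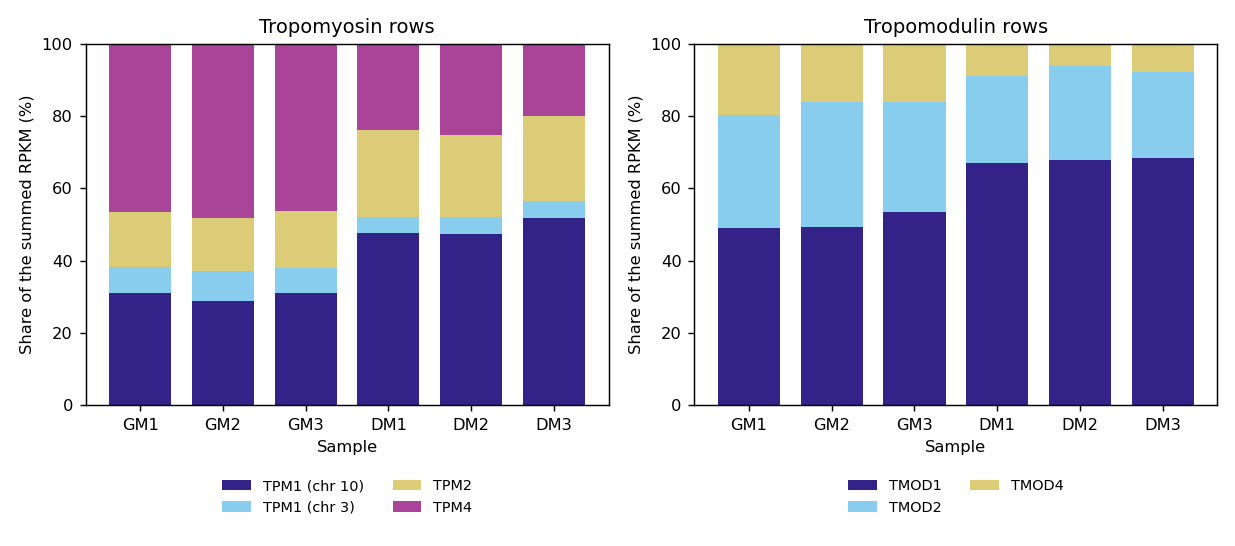
Share of the summed RPKM (y axis, %) taken by each tropomyosin row (left) and each tropomodulin row (right) in each sample (x axis). TPM4 takes 46.3 to 48.1% of the tropomyosin sum in GM and 19.8 to 25.1% in DM samples, and TMOD1 takes 49.0 to 53.4% of the tropomodulin sum in GM and 67.1 to 68.5% in DM samples.

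The mRNA table lists 2 transcripts for the chromosome 3 row of TPM1 and 2 for TPM2, and 1 for each other member. A read that lies on both transcripts of a gene was counted for both, so reads counted on 1 transcript alone were obtained as the gene's count less the count of the other transcript. This computation was added after the counts of the transcripts had been seen. In the 18150 genes with 1 transcript the gene and transcript counts were equal in every sample, and in 1592 of 1605 genes with 2 transcripts the gene count lay between the larger count and the sum of both.

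In the chromosome 3 row the 2 transcripts moved in opposite directions. Transcript ENSBTAT00000013077, of 1106 bases, had 370, 365 and 348 reads of its own in GM samples and 2395, 2705 and 4636 in DM samples. The lowest DM sample was far above every GM sample, and DM replicate 3 was the highest. These reads rose 10.1-fold (log2 fold change 3.33, SE 0.20, adjusted p = 6.49e-08 over 1603 such features). Their share of the row's reads went from 1.95% ± 0.162 to 24.7% ± 5.25 (SD, n = 3). Without DM replicate 3 the log2 fold change was 3.01, and it was called in all 12 settings that were run for it.

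Transcript ENSBTAT00000047197, of 2090 bases, had 15207, 16982 and 13699 reads of its own in GM samples and 6933, 7891 and 8159 in DM samples. Its share of the row's reads fell from 82.2% ± 0.364 to 60.0% ± 5.09. By reads, which are not per length, it remained the larger share in each sample. In RPKM of whole transcripts the 2090-base transcript had 101, 110 and 113 in DM samples. The 1106-base transcript had 90.2, 98.5 and 142, and so was the higher in DM replicate 3. The log2 fold change of the longer transcript's own reads was -0.82 (SE 0.078, adjusted p = 4.08e-06). The reads that lie on both transcripts made up 15.8% ± 0.308 in GM and 15.3% ± 0.174 in DM samples. For each of these shares the exact permutation test gave 0.1, the smallest p possible. In whole transcript counts, where shared reads enter both, the changes were smaller, with log2 fold changes of 0.81 (adjusted p = 0.000429) for the shorter and -0.77 (adjusted p = 2.95e-06) for the longer transcript.

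Both TPM2 transcripts were higher in DM samples. The 855-base transcript ENSBTAT00000015186 had 2373, 2057 and 2376 reads of its own in GM samples and 4878, 5401 and 7353 in DM samples. These reads rose 2.90-fold (log2 fold change 1.54, SE 0.13, adjusted p = 1.50e-06), and their share of TPM2 reads went from 7.45% ± 0.553 to 11.4% ± 1.12 with no overlap. The 2116-base transcript ENSBTAT00000046179 rose 1.88-fold in reads of its own (log2 fold change 0.91, adjusted p = 5.38e-06). Its share was 38.5% ± 0.681 and 38.2% ± 0.764 and overlapped between groups (exact permutation p = 0.6). The reads on both TPM2 transcripts went from 54.0% ± 0.235 to 50.4% ± 1.61. Of the 4 transcripts with such reads 2 were called higher, against 17.3% of all features of this kind. Of the 10 transcripts of the members, 3 were called higher in whole counts, against 15.5%, and by adjusted p alone 7 rose, against 32.3%, and 2 fell, against 32.3%. The 3 called transcripts were those of TMOD1, TMOD2 and LMOD1.

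**Figure D4:**
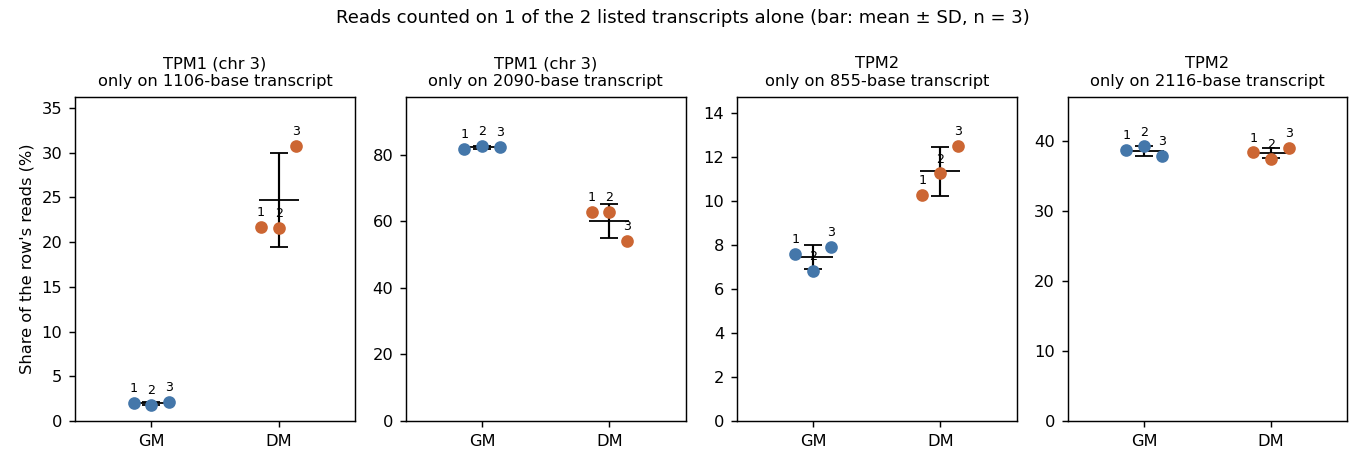
Reads counted on 1 of the 2 listed transcripts alone, as a percentage of all reads of the row (y axis, linear from 0), for the chromosome 3 row of TPM1 and for TPM2. Points are the 3 GM (blue) and 3 DM (orange) samples numbered by replicate, with mean ± SD. The 1106-base transcript goes from about 1.95% to 24.7%, the 2090-base one from 82.2% to 60.0%, and the 2116-base transcript of TPM2 overlaps between groups.

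TMOD1, the pointed-end cap of red cells and of cardiac and skeletal sarcomeres, is at chromosome 8, 63180883 to 63269863 (plus strand, ENSBTAG00000014719). It had 9.789, 9.158 and 10.998 CPM in GM samples and 33.0, 36.0 and 42.7 CPM in DM samples. Every DM sample stood far above every GM sample. The log2 fold change of 1.90 (SE 0.11, adjusted p = 1.76e-07) was the largest among the member rows, and TMOD1 was called in all 15 settings. Without DM replicate 3 it was 1.80. Of the erythroid markers SLC4A1 was at 0 in every sample, the 1 marker tested was not called, and the sum was 0.0241 to 0.132 CPM in GM and 0.137 to 0.189 CPM in DM samples.

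TMOD2, the tropomodulin typical of neurons, is at chromosome 10, 58662512 to 58711813 (minus strand, ENSBTAG00000014011). Its level was 6.51, 6.68 and 6.51 CPM in GM samples. It was 12.2, 14.4 and 15.4 CPM in DM samples. The groups were well separated, with a log2 fold change of 1.09 (SE 0.12, adjusted p = 1.78e-05). TMOD2 was called in 13 of 15 settings, and lost the call with scaling by library size alone (0.997) and where the change itself was tested for being over 2-fold. Of 3 neuronal markers tested 1 was called higher and 1 lower, and none was at 0 in every sample. The marker called higher, SNAP25, had 1, 1 and 3 reads in GM and 3, 3 and 153 in DM samples. The summed level of the 3 markers was 275 to 313 CPM in GM and 303 to 584 CPM in DM samples, highest in DM replicate 3. It was mostly STMN2, which was not called (294 ± 19.1 and 396 ± 158 CPM, adjusted p = 0.0916). Without DM replicate 3 the log2 fold change of TMOD2 was 1.03. The part of neuronal RNA was not tested.

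TMOD4, a tropomodulin mostly of skeletal muscle, is at chromosome 3, 19679350 to 19683836 (plus strand, ENSBTAG00000018071). Its counts were low, between 51 and 77 reads per sample. The level was 1.71, 1.30 and 1.45 CPM in GM samples and 1.92, 1.39 and 2.08 CPM in DM samples. The groups overlapped, and the log2 fold change was 0.27 (SE 0.26, adjusted p = 0.373). No difference was detected for TMOD4 beyond this error.

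In RPKM the order of the tropomodulins was TMOD1, TMOD2 and TMOD4 in both groups, with no overlap between neighbours. Their sum went from 7.42 ± 0.402 to 19.3 ± 2.52 RPKM (SD, n = 3), far below that of the tropomyosins. TMOD1 took 49.0, 49.3 and 53.4% of the sum in GM samples and 67.1, 67.8 and 68.5% in DM samples. TMOD2 went from 32.1% ± 2.21 to 24.6% ± 1.32 and TMOD4 from 17.3% ± 2.06 to 7.57% ± 1.48. With shares of raw counts the difference of DM minus GM was -4.83 points for TMOD4 in place of -9.74, and -10.1 points for TMOD2 in place of -7.52. The groups did not overlap in any of these 3 shares, and each exact permutation test gave its smallest possible p of 0.1.

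LMOD1, the leiomodin best known from smooth muscle, is at chromosome 16, 49624532 to 49651879 (minus strand, ENSBTAG00000021576). It had 8.78, 8.08 and 7.89 CPM in GM samples and 18.2, 17.7 and 16.8 CPM in DM samples. Unlike most of the family its lowest DM sample was replicate 3. The log2 fold change was 1.09 (SE 0.10, adjusted p = 4.08e-06), and it was 1.13 without DM replicate 3. It was called in 13 of 15 settings and lost the call in the same 2 as TMOD2, with 0.99 when scaled by library size alone. In RPKM LMOD1 overlapped with TMOD1 in GM samples (3.42 ± 0.201 and 3.76 ± 0.354) and lay below it in DM samples (6.81 ± 0.235 and 13.1 ± 1.84). Of the 6 smooth muscle markers beside it, MYH11, smooth muscle myosin heavy chain, rose with a log2 fold change of 0.78 (adjusted p = 0.00554), and SMTN (-1.07) and ACTG2 (-0.74) fell. CNN1 stood at -0.05 (adjusted p = 0.521) and DES at -0.15 (adjusted p = 0.217). MYOCD was called lower on 26, 3 and 8 reads in GM against 1, 1 and 0 in DM samples.

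The other genes of the thin filament were taken from 4 lists. Of 19 genes of the striated thin filament (skeletal and cardiac actins, troponins, nebulin and its partners and the striated leiomodins) all were tested, 16 were called higher and 0 lower. Among all genes tested 15.0% were called higher and 10.3% lower. The median log2 fold change of this list was 3.54, beside 0.96 for the member rows and 0.03 for all genes. The 3 largest changes were those of TNNI2, fast troponin I (5.20, SE 0.15), LMOD3, a leiomodin of skeletal muscle (4.86, SE 0.30), and TNNT3, fast troponin T (4.82, SE 0.17). LMOD3 went from 1.04 ± 0.474 to 30.1 ± 9.56 CPM. LMOD2, named here after its values were seen because it completes the leiomodins, went from 1.25 ± 0.380 to 23.3 ± 1.83 CPM (log2 fold change 4.22, SE 0.18, adjusted p = 2.04e-08).

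Of 10 tested genes that cap or sever barbed ends, the other end of the filament, 1 was called higher and 1 lower. Over all genes tested the shares were 15.0% and 10.3%. The median log2 fold change of the list was -0.05. ADD3, gamma-adducin, rose with a log2 fold change of 1.06 and lost the call without DM replicate 3 (0.97), with scaling by library size alone (0.96) and when tested for a change over 2-fold. CAPG, a capping protein of the gelsolin family, fell with -1.52. GSN, SVIL and TWF2 of this list were not listed by symbol.

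Genes of actin turnover and branching had a median of -0.15. Of 22 tested 0 were called higher and 3 lower, against 15.0% and 10.3% of all genes tested. The 3 were CORO1A (-1.83) and CORO1C (-1.003), both coronins, and CFL1 (-1.05), the non-muscle cofilin that severs filaments. Without DM replicate 2 only CORO1A was called, with CFL1 at -0.98 and CORO1C at -0.95. CORO1C also lost its call without DM replicate 1, without GM replicate 1, with DESeq2 (-0.999), with DESeq2 size factors in edgeR, with edgeR's own filter on low counts (-0.99) and with the minimum of 1 RPKM (-0.95), where CFL1 (-0.99) lost its call too. Neither CORO1C nor CFL1 was called when tested for a change over 2-fold.

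Genes of stress fibres and smooth muscle contraction had a median of -0.33. Of 22 tested 2 were called higher and 5 lower, against 15.0% and 10.3% of all genes tested. MYLK, myosin light chain kinase, rose with a log2 fold change of 3.78 (1.71 ± 0.114 to 23.6 ± 7.14 CPM), and MYL12B, a regulatory light chain of non-muscle myosin, with 1.70. ACTB, non-muscle beta-actin, fell with -1.48, from 6193 ± 240 to 2225 ± 201 CPM. The fall of TPM4 (-0.74) was smaller than those of ACTB and CFL1, but larger than the medians of their lists, -0.33 and -0.15. TMOD1, with the largest rise of the member rows, stayed below the median of the striated list.

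**Figure D5:**
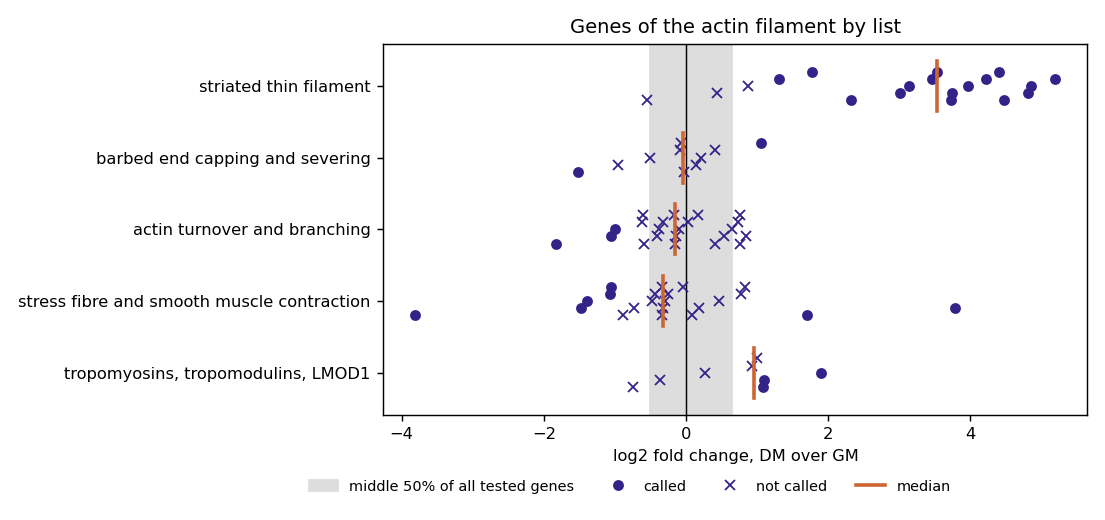
Log2 fold change of DM over GM samples (x axis) for each tested gene (circles called, crosses not called) of 4 lists of actin filament genes and for the 8 member rows. Orange bars give the medians, 3.54, -0.05, -0.15, -0.33 and 0.96 from top to bottom, and the grey band the middle 50% of all genes tested. The vertical scatter within a list has no meaning.

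The genes whose log2 CPM over the 6 samples was most like that of a member were taken from those that averaged 10 CPM or more. TMOD1 was nearest to CAP2 (Pearson's r 0.999) and DRAM1 (0.999). TPM2 was nearest to ETHE1 and OSBPL10. TPM4 was nearest to HAS2 (r 0.99985), which went from 103 to 19.3 CPM, and to CDC25A. TMOD2 was nearest to SC5D and ARID4A, and LMOD1 to ATXN7L3B and DDX17. The chromosome 3 row of TPM1 had REXO4 (r 0.993) and TMOD4 had GRINA (r 0.981) as its nearest named gene. With 2 groups of 3 samples any gene that differs between the groups gains a high r, and 1459 of 8980 genes passed 0.95 with TMOD1, 2310 with TPM4 and 215 with the chromosome 3 row.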

How the data were processed

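The polyA-Seq data comprise 3 GM and 3 DM samples of buffalo MuSCs, grouped by their titles. Raw counts per gene and per mRNA transcript were deposited. For these the authors aligned the reads with HISAT2, and HTSeq is among the references of their section on expression levels. The deposited RPKM are those counts per kilobase of listed length and per summed count of the sample, over all genes for the gene table and over mRNA and ncRNA transcripts together for the mRNA table. The sources differ on the reference. The methods name the buffalo genome, the tables list cattle Ensembl identifiers and no build, and the submitters' processing notes list Bowtie 0.12.2, mm8 and mm9. Coordinates are those of the files. Sequences of the members were not used here. The deposited lists of the authors' own comparison (log2 fold changes, p-values and q-values) were not used, and 0 sample columns stayed unmapped. Counting is not stated to use strand. No member row overlapped another gene row. Related genes such as the tropomyosins can share reads, and how such reads were counted is not given in the sources used here.

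The quasi-likelihood test of edgeR 4.0.16 (glmQLFit, glmQLFTest, R 4.3.3) was run with TMM factors on each feature whose 6 counts summed to 10 or more, with Benjamini-Hochberg adjustment over all features tested. A feature was called where the adjusted p-value was under 0.05 and the log2 fold change over 1 in size. Shares were compared with two-sided exact permutation tests. Reads on 1 transcript alone were tested in the same way with the library sizes of the gene table. On simulated counts 200 of 200 changed features were recovered in the gene table (15595 genes, 3 false calls), 200 of 200 in the mRNA table (16361 transcripts, 0 false) and 200 of 200 among reads on 1 transcript alone (1609 features, 5 false). In this simulation the planted changes were well over 2-fold, in features with more than a few reads, at a fixed low dispersion. It therefore cannot tell how changes near the 2-fold limit are called. DESeq2 1.42.0 served as an alternative, beside other scalings, filters, fold limits and samples left out in turn. Python 3.11.15 with pandas 2.3.3, numpy 2.4.6 and scipy 1.17.1 was used for the tables.

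Members, gene lists and tests were chosen with earlier results of these data known. Named genes were the members and their transcripts, the 3 called genes of each pathway list with the largest change and a mean of at least 1 CPM, and the 2 genes most like each member by Pearson's r (log2 CPM, prior count 2), of which those for TPM1 on chromosome 10 are not reported here. The 9 marker lists were for skeletal muscle, fibroblast, smooth muscle, adipocyte, endothelial, immune, cardiac, erythroid and neuronal cells. Their named genes and LMOD2 were chosen after values were seen.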

Additional observations from a re-analysis of the deposited data

How the results depend on the processing

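No member changed direction under any alternative. Member rows called higher numbered 3, and 1 with scaling by library size alone, 5 with no minimum fold change, 1 in a test against a 2-fold change and 3 to 5 when samples were left out in turn. They numbered 4 with DESeq2, with DESeq2 size factors in edgeR, with edgeR's own filter on low counts and with the minimum of 1 RPKM. In each of these TPM1 on chromosome 10 passed the 2-fold limit. Member rows called lower numbered 0, and 2 with no minimum fold change. Member transcripts called higher numbered 3, and 1 with scaling by library size alone, 7 with no minimum fold change and 1 in the test against a 2-fold change. They numbered 4 with the minimum of 1 RPKM and 3 to 4 when samples were left out. Transcripts called lower were 0, and 2 with no minimum fold change. Reads on 1 transcript alone were called lower for 0 transcripts, and for 1 with no minimum fold change. List genes called higher numbered 19, and 32 with no minimum fold change and 14 with the minimum of 1 RPKM. List genes called lower numbered 9, and 27 with no minimum fold change, 4 in the test against a 2-fold change and 6 to 10 when samples were left out. Under scaling by library size alone the median over all genes went on the log2 scale from 0.03 to -0.07 and the members by as much, so that relative to that median TMOD2 stood at 1.07 and LMOD1 at 1.06 under both scalings. No pairing by replicate number was seen, as the correlation of deviations between equal numbers was -0.0218 to -0.00756. This cannot tell whether equal numbers shared a culture or fetus. With a replicate block 3 member rows were called higher and 0 lower, and 2 transcripts by their own reads. TMOD4 had the fewest reads of the members, at most 77 in a sample.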

Other observations

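TMOD3 was not listed by symbol. In the RefSeq annotation of buffalo it lies between TMOD2 and LEO1, and in the gene table the rows between these 2 genes on chromosome 10 are listed by identifier alone. ENSBTAG00000019601 (58569062 to 58646799, minus strand) had 12.9 ± 0.585 CPM in GM and 12.2 ± 0.247 CPM in DM samples (SD, n = 3), with a log2 fold change of -0.08 (edgeR adjusted p = 0.508). ENSBTAG00000047868 (58576206 to 58581557, plus strand), which lies inside the former row's span, had 6.47 ± 0.331 and 5.90 ± 0.166 CPM, with a log2 fold change of -0.13 (edgeR adjusted p = 0.399). Neither row is given a symbol here.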
